A study of Mus musculus with 4 samples.

Results

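Mature neutrophils with little expression of activation genes were chosen from single-cell RNA sequencing of mouse bone by the UMI counts (unique molecular identifiers, 1 per captured RNA molecule) of each barcode. A barcode entered when it held 1000 to 40000 UMIs, at least 200 genes, at most 10% mitochondrial and at most 0.2% haemoglobin UMIs, and passed the following limits. *S100a8* and *S100a9* had to make up at least 3% of the UMIs, *Camp*, *Ngp* and *Ltf* less than 1%, and *Cxcr2* and *Csf3r* at least 1 UMI. The activation genes *Ccrl2*, *Il1rn*, *Cd274* and *Il1f9* had to stay under 3 UMIs, *Creg1*, *Pdcd1lg2*, *Ptgr1* and *Gclm* under 4, and *Csf1r*, *Ms4a6c* and *Ccr2* under 3. These limits selected 2142 of the 31279 barcodes that passed the quality limits, out of 40003 deposited.

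The bones came from wild-type mice, 2 left untreated (Ctrl) and 2 suspended by the tail for 28 days, a model of hindlimb unloading (HLU) that takes mechanical load off the hind legs. Each mouse gave 1 library from a 10x Genomics 3′ kit of version 3.1. Its cells were released by enzymes from femur and tibia once the marrow had been washed out. The sources differ on the age of the mice: the deposited design text names postnatal day 28, while the study's methods give another age. The libraries are called Ctrl 1, Ctrl 2, HLU 1 and HLU 2, and values follow in that order; the selected barcodes, called members below, numbered 458, 516, 719 and 449, with 1142252, 1558298, 1871986 and 1807010 UMIs in sum and medians of 1923, 2529.5, 2286 and 3747 UMIs per barcode.

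Neutrophils are short-lived phagocytes that form in the bone marrow from granulocyte progenitors. They fill their granules in a fixed order, with primary granule enzymes made first, secondary granule proteins such as lactoferrin and the cathelicidin Camp next, and the gelatinase of tertiary granules last. Maturing cells gain the chemokine receptor Cxcr2, which calls them out of the marrow, and respond to granulocyte colony-stimulating factor through Csf3r. Once activated they make cytokines such as interleukin 1 beta and chemokines such as Cxcl2.

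HLU 2 stood apart from the other 3 libraries before any comparison of groups. Among the members, Ctrl 1 and Ctrl 2 differed by more than 2-fold at 6.44% of tested genes, HLU 1 and the Ctrl libraries at 14.6% and 12.4%, HLU 2 and the Ctrl libraries at 35.5% and 34.1%, and the HLU libraries between themselves at 28.5%. Gm42418, a transcript that overlaps ribosomal RNA sequence, stood at 2675, 3760, 2202 and 47534 unscaled CPM in the members, that is, in proportion to all their UMIs. Mitochondrial transcripts took 1.003%, 1.04%, 0.823% and 0.388% of their UMIs. *S100a8* and *S100a9*, the calgranulins of the neutrophil cytosol, took 14.2%, 15.3%, 16.1% and 29.4%. Results are therefore given with HLU 2 and, where it bears on them, without it. In a fit that leaves out a library, its group keeps 1 library, so the spread comes from the other group. Numbers of calls from such fits show only how far the calls depend on that library. Between 23 and 36 barcode sequences occurred in both libraries of a pair, and 3, 2, 7 and 3 members carried such a barcode. Scrublet, which scores a barcode by its likeness to simulated mixtures of cells, put 27, 28, 26 and 16 members among putative doublets when the top share was set at 0.8% per 1000 barcodes. They were kept, and the number of edgeR calls is also given without them.

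The label was checked on its markers. *Cxcr2* and *Csf3r* were part of the rule, and both were detected in 51.1%, 63.0%, 70.0% and 78.8% of members. Of the markers that the rule did not use, *Retnlg*, a resistin-like protein secreted by mature neutrophils, had a UMI in 97.8%, 97.9%, 99.2% and 94.9% of members. B-like barcodes, defined by at least 5 UMIs of B cell markers and under 1% *S100a8* and *S100a9*, should lack it and held a *Retnlg* UMI in 20.6%, 40%, 43.5% and 8.05% of cases at medians of 3648.5, 4042.5, 3644 and 2417.5 UMIs. The neutrophil collagenase *Mmp8* was detected in 66.8%, 70.9%, 81.2% and 91.8% of members, against 1.59%, 7.83%, 8.74% and 5.03% of B-like barcodes. The gelatinase *Mmp9* was detected in 72.1%, 74.4%, 88.2% and 91.8%, against 4.76%, 10.9%, 14.9% and 3.02%. *Stfa2l1*, a cysteine protease inhibitor of the stefin A family, was the least widespread marker, in 21.8%, 24.4%, 31.6% and 49.2% of members against 0%, 0%, 1.12% and 1.34% of B-like barcodes. All these shares grow with the depth of a barcode, and after thinning to 1000 UMIs per barcode that of *Mmp8* was 53.3%, 54.8%, 70.1% and 79.7% and that of *Stfa2l1* 14.8%, 16.9%, 25.2% and 33.9%. Each marker was found in a larger share of members than of B-like barcodes in every library.

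The words "without activation genes" hold only within the limit of the rule. No UMI of the 4 activation genes was found in 44.8%, 40.7%, 40.6% and 24.5% of members, and the others held 1 or 2. Activation transcripts outside the rule were common: *Cxcl2*, a chemokine that attracts neutrophils, was detected in 83.0%, 86.8%, 72.6% and 68.8% of members against 19.8%, 47.4%, 26.4% and 13.4% of B-like barcodes. *Il1b*, which encodes interleukin 1 beta, was detected in 52.8%, 42.2%, 47.4% and 83.3% against 5.56%, 10.4%, 6.32% and 18.5%.

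Barcodes lay close on both sides of the limits of the rule. Members with 2 activation UMIs numbered 114, 127, 193 and 195, and 71, 104, 165 and 156 barcodes that met all other limits were left out at 3 UMIs. With *Camp*, *Ngp* and *Ltf* at 0.5% to 1% there were 65, 96, 177 and 90 members, beside 65, 102, 190 and 148 barcodes left out at 1% to 2%. A single UMI of *Cxcr2* or *Csf3r* admitted 110, 111, 97 and 37 members, while 124, 146, 93 and 46 barcodes were left out for having 0.

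The share of mature neutrophils among all barcodes that passed the quality limits did not separate the groups. It was 6.26% (95% exact binomial interval 5.72 to 6.84, covering counting error only) and 6.88% (6.32 to 7.48) in the Ctrl libraries, and 9.50% (8.85 to 10.2) and 5.04% (4.60 to 5.52) in the HLU libraries. The means were 6.57% ± 0.438 for Ctrl and 7.27% ± 3.15 for HLU (SD, n = 2 each; two-sided exact permutation test, p = 1), and the smallest p that 2 libraries against 2 can give is 0.333. HLU 1 was the highest and HLU 2 the lowest of all 4. Each library was deposited with 10000 to 10003 barcodes, so every share is a part of a nearly fixed number.

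Among the barcodes with at least 3% *S100a8* and *S100a9*, which numbered 2330, 3435, 5472 and 5988, the members made up 19.7%, 15.02%, 13.1% and 7.50%. Both HLU libraries lay below both Ctrl libraries (17.3% ± 3.28 and 10.3% ± 3.99, SD, n = 2 each; exact permutation p = 0.333, the smallest possible). The activation, *Creg1* and monocyte limits count UMIs, so that a deeper barcode passes them less often, and these barcodes had medians of 3779, 3530, 3757.5 and 6227 UMIs. When every barcode was thinned to 1000 UMIs before the rule, the 4 shares became 23.9%, 23.0%, 24.5% and 22.3%, with means of 23.5% ± 0.637 and 23.4% ± 1.59 (exact permutation p = 1). Over all barcodes that pass, the thinned shares were 7.60%, 10.6%, 17.7% and 14.99%, and both HLU libraries then lay above both Ctrl libraries (9.09% ± 2.09 and 16.4% ± 1.94, exact permutation p = 0.333). The skeletal barcodes of these libraries, those with at least 3% of UMIs from a list of skeletal genes, numbered 3151, 2129, 30 and 79 and stand in that second denominator. Whether fewer of them account for the higher share was not tested.

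**Figure D1:**
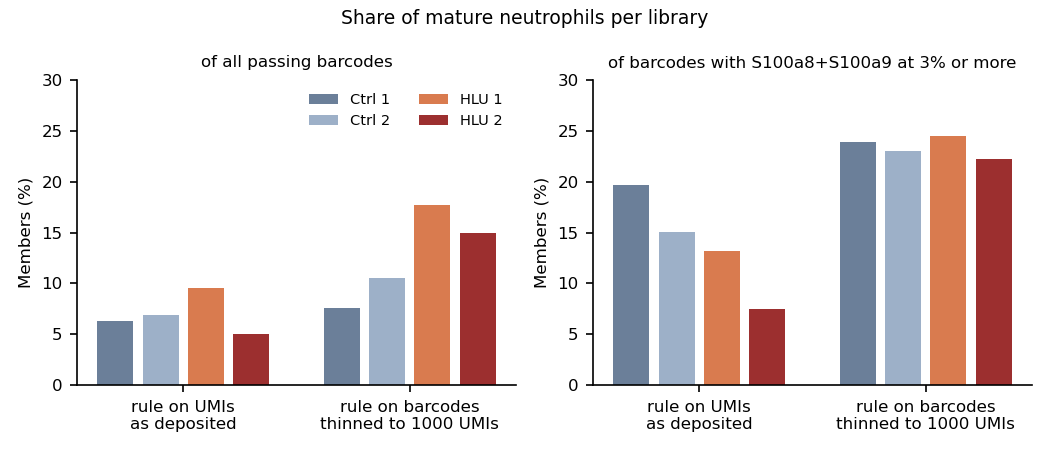
Share of mature neutrophils in each library, in % of all barcodes that passed the quality limits (left) and of those with at least 3% *S100a8* and *S100a9* (right), with the rule applied to the UMIs as deposited and to barcodes thinned to 1000 UMIs; each bar is 1 library. In the right panel the spread from 7.50% to 19.7% narrows to 22.3% to 24.5% after thinning.

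The genes that were highest in the members over all other barcodes together are given as a description, because the rule used the same cells. Of genes with at least 50 unscaled CPM in the members of each library, the highest mean fold belonged to *Ppp1r3b*, which directs protein phosphatase 1 to glycogen, at 7.61. The tyrosine kinase *Bmx* followed at 7.53 (11.3 without HLU 1), the ATP-hydrolysing ectoenzyme *Entpd1* at 6.48, the glucose transporter *Slc2a3* at 6.26 and the chemokine *Ccl6* at 6.20. *Retnlg* reached 6.11, the adhesion molecule *Jaml* 5.62, the decoy interleukin 1 receptor *Il1r2* 5.53, the stefin *Gm5483* 5.26 and the Schlafen gene *Slfn1* 5.15. *Cxcr2* and *Csf3r*, the genes of the rule, were at 6.75 and 5.09. *Bmx* was steady, with 83.2, 77.6, 85.5 and 78.6 unscaled CPM, whereas *Slc2a3* stood at 1629, 2379, 1740 and 232 and *Ppp1r3b* at 254, 351, 257 and 65.9, low in HLU 2.

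The 3 neighbouring gates among the *S100a8* and *S100a9* barcodes show where the members lie. Barcodes with at least 1% *Camp*, *Ngp* and *Ltf*, the immature gate (614, 1119, 1325 and 1425 barcodes), held 19.1-fold less *Il1b*, 14.2-fold less *Ccl6*, 13.7-fold less *Jaml* and 12.3-fold less *Gm5483* than the members. Members in turn held 18.04-fold less of the lactate dehydrogenase *Ldhc*, 14.5-fold less of the chitinase-like *Chil3*, 12.9-fold less of the ficolin *Fcnb* and 12.5-fold less of the proliferation marker *Mki67*, with *Cdca8*, *Top2a* and *Birc5*, genes of mitosis, lower by 11.9, 11.7 and 10.4 times.

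Barcodes with 3 or more UMIs of the activation genes (191, 431, 486 and 810) were the nearest. Among genes of this floor that were higher in the members in every library, none was more than 1.92-fold higher (*Adpgk*, a glucokinase that uses ADP). Several genes that led over all other barcodes were higher in this gate than in the members, with means of 1083 against 848 unscaled CPM for *Ccl6*, 152 against 94.7 for *Jaml*, 1948 against 1314 for *Gm5483* and 141 against 132 for *Entpd1*. Outside the rule, the stress gene *Gadd45b* was 2.63-fold lower in the members, the chemokines *Ccl4*, *Ccl3* and *Cxcl2* 2.50-, 2.29- and 2.23-fold lower, and *Tnfaip3*, an inhibitor of NF-kappa B, 2.50-fold lower. Barcodes with 4 or more UMIs of the *Creg1* genes (137, 171, 393 and 273) held more of the primary granule proteases, *Ctsg* by 8.75, *Elane* by 8.08 and *Prtn3* by 7.98 times, and 8.35-fold more *Ms4a3*, a gene of granulocyte and monocyte progenitors. These folds rested on HLU 2, where the gate held 2676 unscaled CPM of *Ctsg* against 148, 188 and 108 in the other libraries. Without HLU 2 they were 3.53, 5.11, 5.30 and 4.51 times for *Ctsg*, *Elane*, *Prtn3* and *Ms4a3*. *Ppp1r3b* was 3.58-fold and the DNA demethylase *Tet2* 2.98-fold higher in the members than there.

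**Figure D2:**
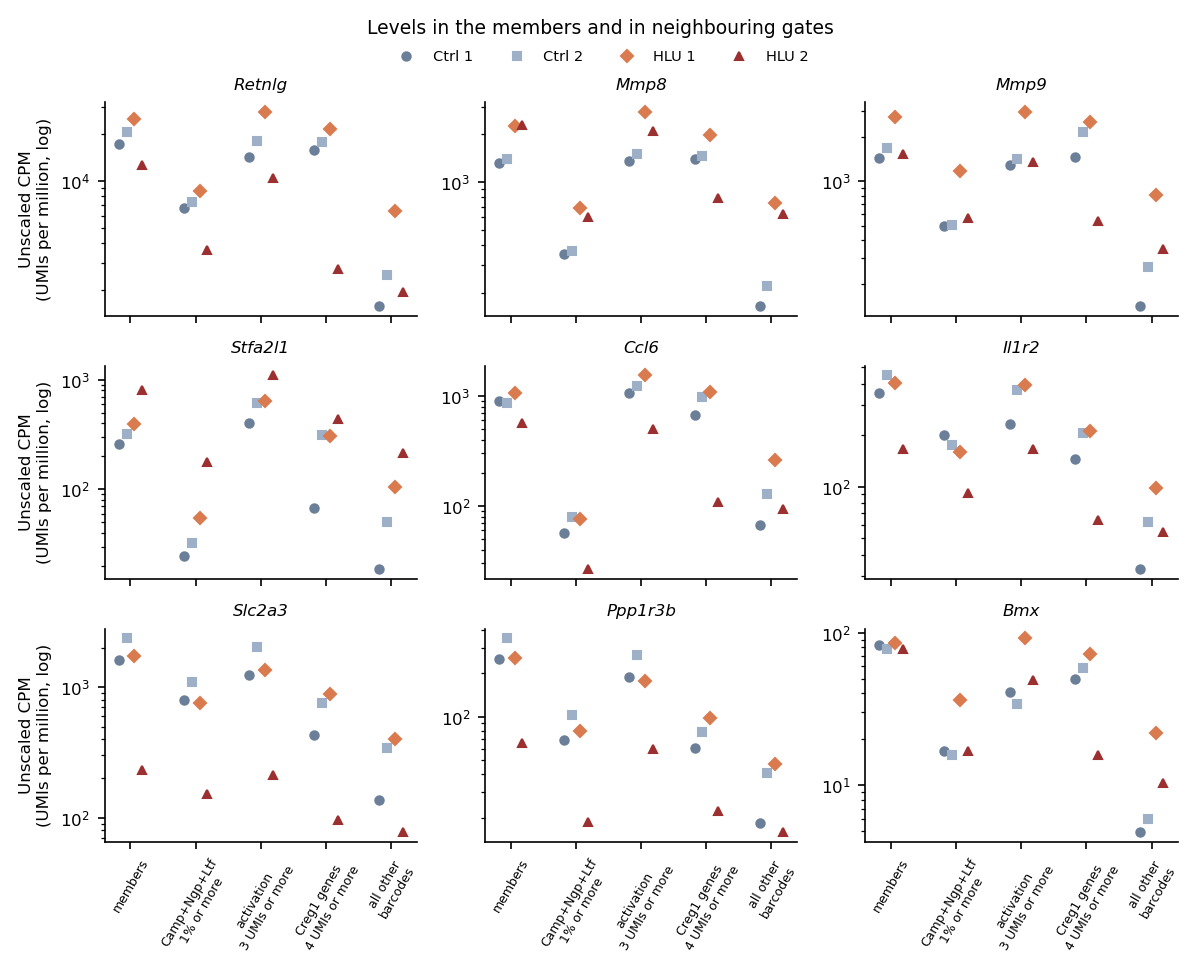
Unscaled CPM (log axis) of 9 genes in the members, in the 3 neighbouring gates and in all other barcodes; each point is 1 library and there is no error bar. Members and the gate with 3 or more activation UMIs lie close together for *Retnlg* and *Mmp8*, while the gate with 1% or more *Camp*, *Ngp* and *Ltf* lies lower for all 9 genes.

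For HLU against Ctrl, the UMIs of the members were summed per mouse and tested with edgeR over 7192 genes, and levels from here on are CPM after scaling by edgeR's TMM factors unless called unscaled. With 2 mice a group, p-values measure the spread between these libraries. At an adjusted p under 0.05, 49 genes (0.681% of those tested) were called. All 49 fell in HLU and 0 rose, with 293 higher and 555 lower at an unadjusted p under 0.05, and DESeq2 called 12 higher and 149 lower. Of the 49, 38 passed the filter on low counts only through Ctrl, which favours a lower value in HLU, and the other 11 passed in both groups. With at least 10 counts required in every library edgeR called 0 (396 at an unadjusted p under 0.05), while those 11 genes, *Dcn*, *Clu* and *Acan* among them, were still tested, with log2 fold changes of -5.82 to -2.98 and adjusted p of 0.0709 to 0.0911. Without the putative doublets edgeR called 0 lower (533 at an unadjusted p under 0.05). Without HLU 2 the B cell genes *Igkc* and *Ebf1* had log2 fold changes of 1.29 and 1.95, beside 0.34 and 1.22 with all libraries. Both HLU libraries lay above both Ctrl libraries at 22.6% of all tested genes and below them at 23.8%, which is the background for the counts of gene groups that follow.

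The called falls included genes of the cartilage and connective tissue matrix, with 7 of the 49 on the list of skeletal genes. *Dcn*, the collagen-binding proteoglycan decorin (mm10, chr10:97479609-97518143), stood at 3130, 3828, 99.9 and 24.3 CPM, a log2 fold change of -5.80 (SE 0.80, edgeR adjusted p = 0.0422). *Cilp*, a protein of the cartilage matrix, stood at 187, 304, 0.478 and 0 CPM (edgeR adjusted p = 0.0264). Its HLU value is 1 UMI, beside 723 in Ctrl, which gives an 890-fold lower level with a counting interval of 159 to 35203. *Col10a1*, the collagen of hypertrophic chondrocytes, stood at 126, 730, 1.43 and 0.713 CPM (-8.47, SE 1.14, adjusted p = 0.0416). In these 3 genes the HLU libraries were far below both Ctrl libraries. *Col3a1*, the fibrillar collagen III, had 23.4 and 21.9 CPM in Ctrl and 0 UMIs in both HLU libraries, and was therefore at least 26.4-fold lower by a limit of 3 counts over the group, or 0.859 CPM. The prostacyclin synthase *Ptgis* and the transcription factor *Foxd1* were at least 22.4- and 20.6-fold lower, and the protease inhibitor *Serpina3n* at least 18.6-fold lower by the same limit. The calcium-binding matrix protein *Smoc2* fell from 84.5 and 130 to 1.43 and 1.43 CPM, the myelin and growth-arrest gene *Pmp22* from 56.1 and 40.8 to 0.478 and 0.713, and *Ndufa4l2*, a mitochondrial protein induced by hypoxia, from 116 and 127 to 1.43 and 0. From 2 and 3 UMIs in HLU, *Pmp22* was 82.5-fold (counting interval 22.4 to 688) and *Ndufa4l2* 142-fold (48.2 to 692) lower. *Adm*, the vasodilator adrenomedullin, fell from 35.2 and 23.1 to 0.478 and 0 CPM, 98.5-fold on 1 UMI (counting interval 17.2 to 3938, edgeR adjusted p = 0.0364). *Clu* (clusterin), *Acan* (aggrecan) and *Sox9*, the regulator of cartilage fate, fell, with log2 fold changes of -5.53, -3.39 and -3.54.

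Each of the 49 genes was higher in the skeletal barcodes of the same library than in the members, in both Ctrl libraries, with mean ratios from 3.91 to 13.8 and a median of 6.34. Over all tested genes 45.04% were higher there in both Ctrl libraries, and 11.4% reached the lowest of these ratios. On the list of 18 skeletal genes, 17 were tested, 16 were below both Ctrl libraries in both HLU libraries (10 of the 17 passed the filter only through Ctrl), 7 were called and the median log2 fold change was -3.45, beside 0.03 over all genes. Skeletal transcripts took 1.24% and 1.60% of the members' UMIs in Ctrl and 0.185% and 0.106% in HLU. *Dcn* was the most abundant over all libraries together, but not in each. *Prg4* was higher in Ctrl 2, at 4159 against 4036 unscaled CPM, and in HLU 2, at 880 against 18.8. A skeletal UMI was found in 99.8%, 100%, 12.9% and 6.24% of members, and in 100%, 100%, 10.8% and 7.38% of B-like barcodes. At 1000 UMIs per barcode the members' shares were 94.98%, 95.9%, 6.40% and 2.00%, and those of B-like barcodes 92.9%, 88.3%, 2.23% and 3.36%. The mean counts per thinned barcode were 6.98, 8.27, 0.346 and 0.501 in members and 7.90, 8.97, 0.0223 and 0.111 in B-like barcodes, higher in members in both HLU libraries and lower in both Ctrl libraries.

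These UMIs were unevenly spread. The median member held 9, 10, 0 and 0 of them, and the highest 1152, 3590, 3256 and 1598. The top 5% of members held 70.1%, 79.6%, 98.4% and 99.7%, and the putative doublets 64.0%, 44.4%, 0.317% and 83.5%. Members with over 1% skeletal UMIs numbered 39, 43, 2 and 4, and without them 63 genes were called lower, which included 26 of the 49. Between the groups, the fall of these genes in the members thus went together with fewer skeletal barcodes and with skeletal UMIs in fewer B-like barcodes. Within each group the library with more skeletal barcodes, Ctrl 1 with 3151 and HLU 2 with 79, had the lower skeletal share of the members' UMIs. In HLU this order rested on single members, which held 3256 of the 3467 skeletal UMIs of HLU 1 and 1598 of the 1917 of HLU 2. The mean counts per thinned barcode, 0.346 in HLU 1 and 0.501 in HLU 2, had the opposite order. The part of each of these in the fall was not tested.

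**Figure D3:**
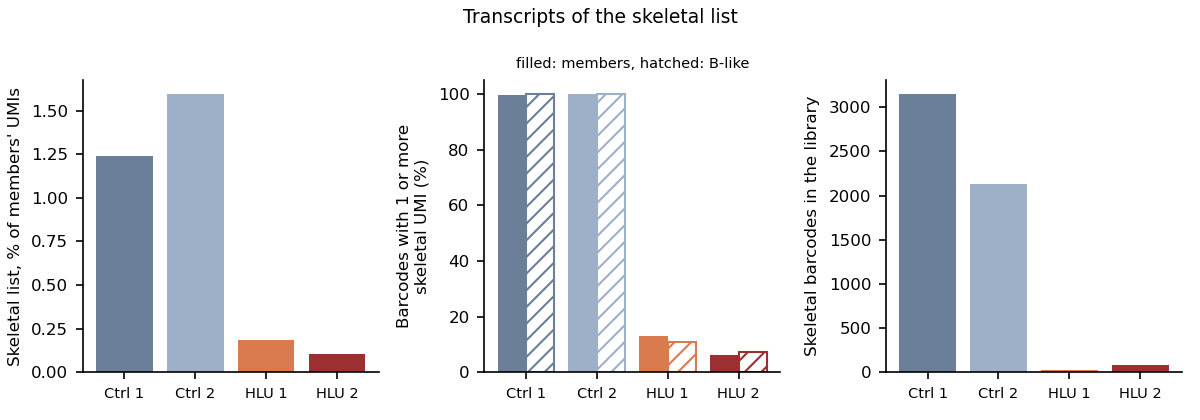
Transcripts of the skeletal list by library: their share of the members' UMIs in % (left), the % of members (filled) and of B-like barcodes (hatched) with 1 or more skeletal UMI (centre), and the number of skeletal barcodes (right). Both Ctrl libraries are high in all panels, and in HLU the centre bars are 12.9% and 6.24% for members and 10.8% and 7.38% for B-like barcodes.

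No gene of the lists of granule, stefin A, NADPH oxidase, adhesion and receptor genes passed the edgeR test in either direction, and DESeq2 called only *Clec5a*, higher. At an unadjusted p under 0.05 there were 1 primary granule, 3 secondary granule, 1 gelatinase granule, 5 stefin A, 3 NADPH oxidase and 3 adhesion genes, with 1 chemoattractant, 2 pattern and Fc, and 3 cytokine receptor genes. The values follow in the order of maturation. Primary granule genes, the early proteases, were low in the members: *Elane*, neutrophil elastase, stood at 56.9, 398, 99.5 and 531 CPM, and the Ctrl libraries differed from each other more than the groups did. In both HLU libraries 2 of the 6 tested were above both Ctrl libraries, with a median log2 fold change of 1.52, or -0.012 over the same genes without HLU 2. Of the 6, 1 passed the filter on low counts only through HLU, and of the 5 that passed in both groups 1 was above. For the 8 tested secondary granule genes outside the rule the count was 5 above and 0 below, and the median 1.18, or 0.40 without HLU 2. *Lcn2*, the iron-trapping lipocalin, stood at 3819, 5200, 3350 and 17860 CPM, so that only HLU 2 was high, and its log2 fold change of 1.23 (SE 0.77, edgeR adjusted p = 0.576) became -0.42 without HLU 2. *Lyz2* (lysozyme) stood at 3758, 3129, 4126 and 7267 CPM.

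For the gelatinase granule 3 of 6 tested genes were above and 1 below, with a median of 0.89, or 0.23 without HLU 2. *Mmp8* stood at 1256, 1317, 2012 and 2937 CPM, with both HLU libraries higher (log2 fold change 0.94, SE 0.41, edgeR adjusted p = 0.442). *Mmp9* stood at 1373, 1603, 2451 and 1972 CPM (0.57, SE 0.39, adjusted p = 0.613). *Retnlg* stood at 16491, 19706, 22436 and 16406 CPM, and the groups overlapped (0.10, SE 0.44, adjusted p = 0.953). *Adam8*, a metalloprotease, went the other way, at 1088, 978, 907 and 275 CPM.

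The stefin A genes on chromosome 16, near-identical inhibitors of cathepsins among which reads can be shared, had the highest median of the neutrophil lists, 2.36, but it was 0.27 without HLU 2. *Stfa1* stood at 87.1, 163, 141 and 1273 CPM and *Stfa2l1* at 246, 307, 355 and 1034, so that HLU 1 was close to Ctrl in both. Of the 6 genes of the NADPH oxidase, which makes superoxide in the phagosome, 4 were above both Ctrl libraries and the median was 0.83, or 0.40 without HLU 2. Its membrane subunit *Cyba* stood at 639, 631, 793 and 2740 CPM, and the cytosolic subunit *Ncf1* at 574, 638, 822 and 855.

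For adhesion genes the medians of log2(CPM + 1) minus the Ctrl mean were 0.25 in HLU 1 and 0.72 in HLU 2, closer together than the 0.30 and 3.23 of the stefin A genes. Of 10 tested adhesion genes 8 were above both Ctrl libraries and 1 below, with a median of 0.50 (0.25 without HLU 2), against 22.6% above over all genes. The integrin *Itgam* stood at 457, 563, 599 and 752 CPM. *Ceacam1*, an inhibitory adhesion receptor named here after its values were seen, stood at 29.3, 28.0, 71.2 and 69.2 CPM (log2 fold change 1.29, SE 0.35, edgeR adjusted p = 0.204). Without HLU 2 its log2 fold change was 1.33. Skeletal barcodes of the Ctrl libraries held 0.59 and 0.70 unscaled CPM of *Ceacam1*, and the members of all libraries 30.6, 29.5, 79.6 and 53.7. The neighbouring gates also held more in HLU. The immature gate had 94.7, 78.5, 179 and 137 unscaled CPM, above the members in each library. The gate with 3 or more activation UMIs had 26.5, 28.0, 53.3 and 55.1, and that with 4 or more UMIs of the *Creg1* genes 39.0, 44.7, 82.9 and 67.4. Of 14 tested pattern and Fc receptors 9 were above and 4 below (median 0.55, or 0.18 without HLU 2). *Fcer1g*, the signalling chain of Fc receptors, stood at 1671, 1732, 1841 and 3732 CPM, and the co-receptor for lipopolysaccharide *Cd14* at 1036, 857, 520 and 516. Of 13 cytokine receptors 7 were above and 1 below (median 0.64, or 0.24), and of 8 chemoattractant receptors outside the rule 1 was above and 2 below (median -0.01, or 0.19). *Cxcr4*, the receptor that holds neutrophils in the marrow, stood at 243, 271, 404 and 27.1 CPM, with HLU 1 highest and HLU 2 lowest.

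**Figure D4:**
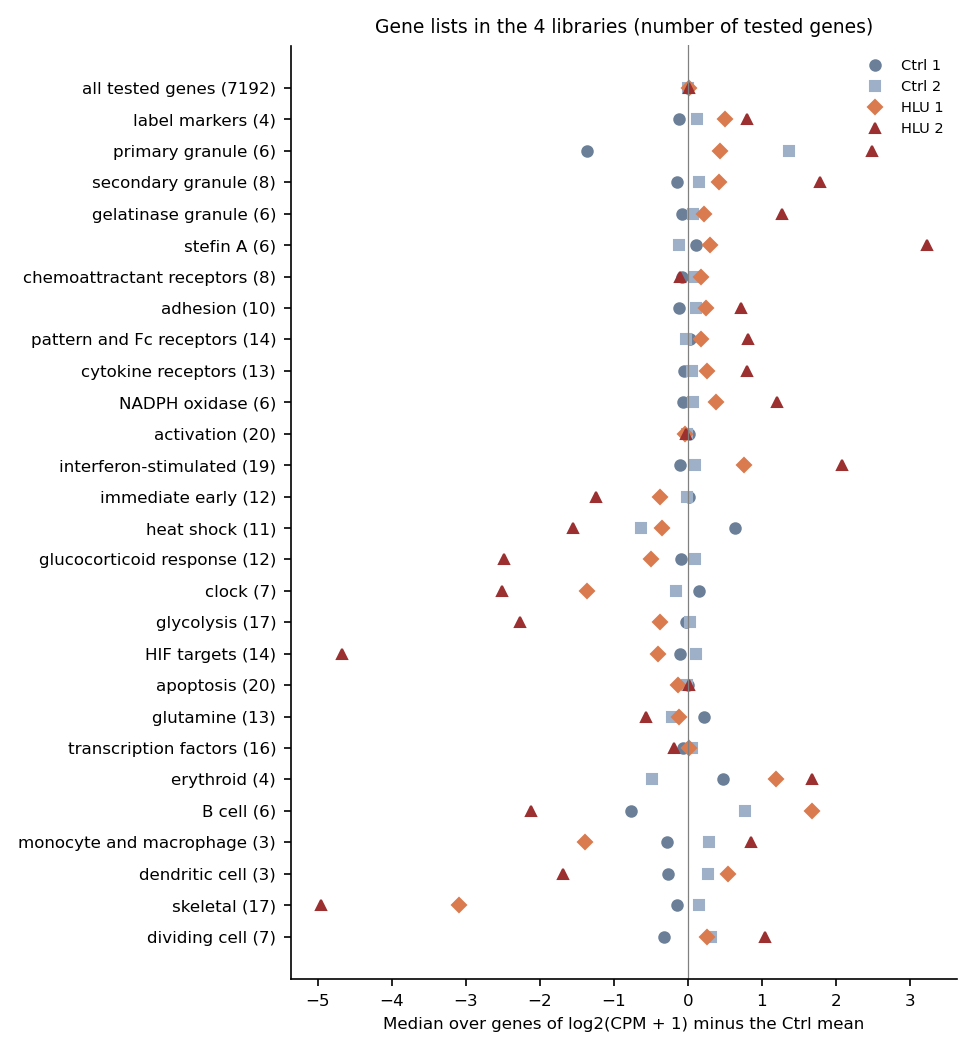
Median over the tested genes of each list of log2(CPM + 1) minus the Ctrl mean, by library; each point is 1 library and the number of genes stands in brackets. The interferon-stimulated list lies at 0.76 in HLU 1 and 2.09 in HLU 2, and the HIF target list at -0.40 and -4.66.

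Interferon-stimulated genes, which cells switch on after type I or type II interferon to limit viruses, were above both Ctrl libraries in both HLU libraries at 13 of the 19 that passed the filter on low counts, out of 32 listed, and below at 0, with a median of 1.58 (0.77 without HLU 2). Of the 19, 8 passed only through HLU, which favours a higher value there, *Ifit1*, *Oasl2* and *Bst2* among them. Of the 11 that passed in both groups 6 were above and 0 below, with a median of 1.16. None passed with edgeR (10 at an unadjusted p under 0.05) or with DESeq2. *Ifit1*, which binds foreign RNA (chr19:34640871-34650009), stood at 1.67, 0.609, 8.13 and 14.3 CPM, from 2, 1, 17 and 20 UMIs in 2, 1, 9 and 10 members (log2 fold change 3.27, SE 0.75, edgeR adjusted p = 0.128). *Oasl2*, a relative of the enzymes that sense double-stranded RNA, stood at 0.837, 1.83, 7.17 and 19.97 CPM (3.17, SE 0.82, adjusted p = 0.182). *Bst2*, or tetherin, which holds virus particles at the membrane, stood at 1.67, 5.48, 21.5 and 18.5 CPM (2.39, SE 0.60, edgeR adjusted p = 0.160). Without HLU 2 its log2 fold change was 2.48. The dendritic cell marker *Siglech*, not tested with all libraries, was also higher in HLU in that fit. The UMIs of *Bst2* came from only 2, 8, 8 and 19 members, and 18 of the 45 in HLU 1 from a single member. B-like barcodes held 84.1, 77.9, 110 and 118 unscaled CPM of *Bst2*, and the members 1.75, 5.78, 24.0 and 14.4. The abundant members of the list differed from this pattern: *Ifitm2*, which blocks virus entry, stood at 843, 1058, 917 and 6177 CPM, *Ifitm3* at 491, 554, 444 and 1002 and *Ifitm1* at 222, 256, 205 and 862, so that HLU 1 was not above both Ctrl libraries at any of them.

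Type I interferon acts through an element with a pair of GAAA words and 2 bases of any kind between them, which interferon regulatory factors bind. Of the 19 tested genes, 15 matched a RefSeq window of 250 bases before the start, and 7 of these hold the letters on either strand, beside 2.98% of all 32851 windows. The upstream sequences of *Ifit1* and *Bst2* are shown as examples with the letters, of genes described above; each is 220 bases of RefSeq GRCm38.p6, given in the direction of the gene and ending 30 bases before the start that RefSeq annotates, which differs from the GENCODE start given above for *Ifit1*, at chr19:34640639-34640858 on the plus strand and chr8:71537503-71537722 on the minus strand. Capitals mark the 2 matches in each, which overlap in *Bst2*. A match describes these letters and is not a measured site.
Ifit1: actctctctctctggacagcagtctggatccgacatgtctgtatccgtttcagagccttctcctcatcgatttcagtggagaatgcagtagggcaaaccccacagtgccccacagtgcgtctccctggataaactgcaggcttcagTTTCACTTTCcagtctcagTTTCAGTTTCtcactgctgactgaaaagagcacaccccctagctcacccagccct
Bst2: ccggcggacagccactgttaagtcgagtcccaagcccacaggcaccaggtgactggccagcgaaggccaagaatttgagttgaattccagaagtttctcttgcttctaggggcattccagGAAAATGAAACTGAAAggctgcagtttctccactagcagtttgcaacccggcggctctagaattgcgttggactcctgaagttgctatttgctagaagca

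Apart from *Ifit1*, *Bst2* and *Oasl2*, the genes with the smallest p among those higher in both HLU libraries, at 10 CPM or more in either group, were *Cdc14a*, *Cc2d1b*, *Hbb-bt*, *Tmem8*, *Il12a*, *Dnajc7* and *Tifa*, and none passed. Only *Cdc14a* and *Dnajc7* of these 7 passed the filter on low counts in both groups, and the others only through HLU, as did *Ifit1*, *Bst2* and *Oasl2*. *Cdc14a*, a phosphatase of the cell cycle and cytoskeleton, stood at 7.53, 7.30, 26.3 and 44.2 CPM, spread over 9, 11, 51 and 53 members (log2 fold change 2.23, SE 0.48, edgeR adjusted p = 0.111). The co-chaperone *Dnajc7* stood at 22.6, 29.2, 76.5 and 63.5 CPM (1.43, SE 0.37, edgeR adjusted p = 0.186). Without HLU 2 the log2 fold changes of *Cdc14a* and *Dnajc7* were 1.83 and 1.56. *Tifa*, an adaptor of NF-kappa B signalling, stood at 5.02, 6.70, 17.2 and 29.2 CPM, and *Il12a*, a subunit of interleukins 12 and 35, at 1.67, 0.609, 6.69 and 21.4. *Hbb-bt*, an adult beta globin, stood at 7.53, 5.48, 22.0 and 22.8 CPM, and the erythroid list summed to 112, 55.8, 201 and 159 unscaled CPM, most of it *Hbb-bs*. The rule limits haemoglobin UMIs, so these values are a description of what it let through.

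Targets of the hypoxia-inducible factor HIF and genes of glycolysis lay lower in HLU, mostly in HLU 2, and did not pass except for *Adm*. Of 14 tested HIF targets 13 were below both Ctrl libraries in both HLU libraries and 0 above, beside 23.8% below over all genes. In both groups 11 of the 14 passed the filter, with 10 below. The median was -1.35, or -0.40 without HLU 2, and 1 gene had an unadjusted p under 0.05. The list summed to 8781, 9659, 7169 and 725 unscaled CPM. *Bnip3*, which marks mitochondria for removal (chr7:138890836-138909519), stood at 1020, 1201, 899 and 24.3 CPM, so that HLU 1 was near Ctrl and HLU 2 far below (log2 fold change -1.26, SE 1.26, edgeR adjusted p = 0.737). The endoplasmic reticulum oxidase *Ero1l*, the most abundant except in HLU 2, stood at 2515, 2885, 1618 and 88.5 CPM, and the lipid droplet protein *Hilpda* at 1324, 1060, 922 and 33.5. Of 17 tested glycolysis genes 13 were below and 1 above (median -1.07, or -0.38 without HLU 2). *Gapdh* stood at 8226, 8522, 6009 and 1906 CPM, *Gpi1* at 2654, 3020, 2167 and 541 and *Pkm* at 3234, 2880, 2685 and 914. In HLU 2 the lower level of these genes went with the high *Gm42418* and low mitochondrial share given above, and the part of either was not tested.

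HIF binds a core of ACGTG in hypoxia response elements. Of the 14 tested targets 11 matched a window and 9 hold these letters on either strand, beside 16.6% of all windows. The upstream sequence of *Bnip3*, a target with the letters, is shown as 220 bases of RefSeq GRCm38.p6 in the direction of the gene and ending 30 bases before its RefSeq start, at chr7:138909537-138909756 on the minus strand. Capitals mark the 2 matches, which overlap on opposite strands.
Bnip3: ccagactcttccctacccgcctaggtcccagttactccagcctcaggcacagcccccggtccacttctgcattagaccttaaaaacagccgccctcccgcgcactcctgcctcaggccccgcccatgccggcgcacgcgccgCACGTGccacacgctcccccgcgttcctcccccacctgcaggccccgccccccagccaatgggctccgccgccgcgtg

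**Figure D5:**
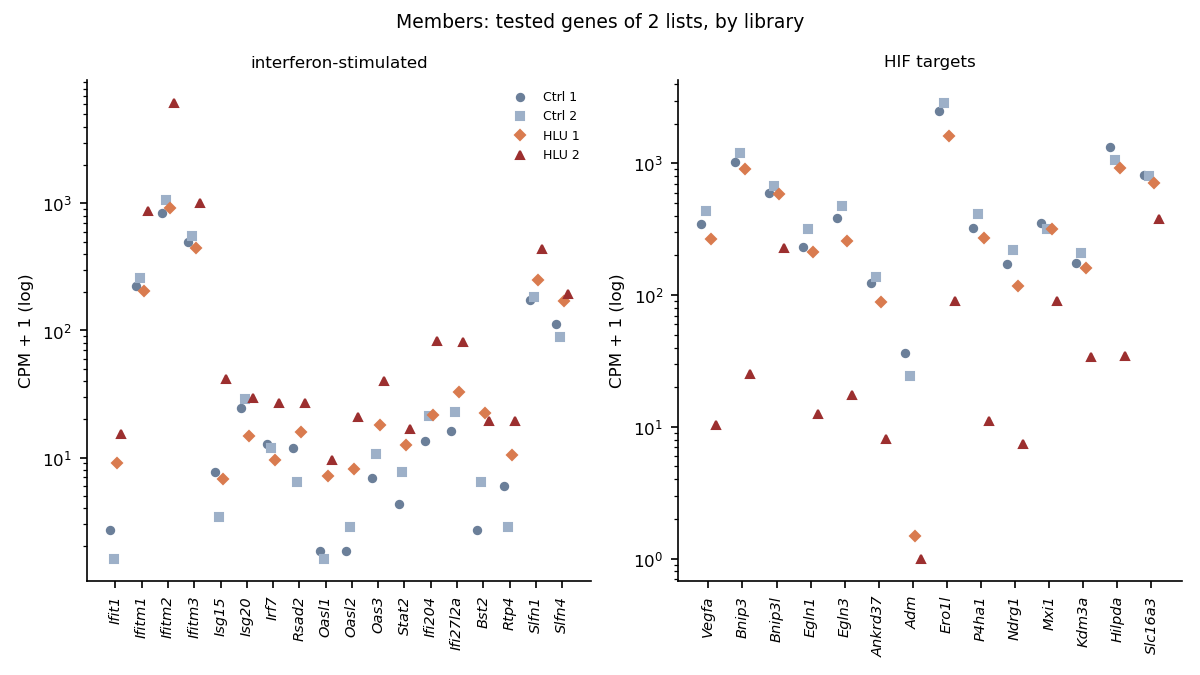
CPM + 1 (log axis) in the members for genes of the interferon-stimulated list (left, without 1 tested gene that is not reported here) and for every tested HIF target (right); each point is 1 library and there is no error bar. HLU 2 lies far below the other 3 libraries for most HIF targets, such as *Bnip3* at 24.3 CPM, and both HLU libraries lie above both Ctrl libraries for *Ifit1* and *Bst2*, which passed the filter on low counts only through HLU, while the abundant *Ifitm1*, *Ifitm2* and *Ifitm3* overlap.

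Immediate early, glucocorticoid and clock genes also lay lower in HLU and did not pass with edgeR, at an unadjusted p under 0.05 for 2, 3 and 3 genes, while DESeq2 called *Ddit4*, *Errfi1* and *Nr1d1* lower. The fit without HLU 2 keeps 1 HLU library, so its spread comes from Ctrl and only directions and sizes are given. There 10 of 12 immediate early, 11 of 12 glucocorticoid and 10 of 11 clock genes tested had a negative log2 fold change. With all libraries 3, 2 and 4 tested genes of these lists passed the filter on low counts only through Ctrl, which favours a lower value in HLU. Of the 9, 10 and 3 that passed in both groups, 6, 7 and 2 were below both Ctrl libraries and 0 above. Their medians were -0.56, -1.13 and -1.12. Of 12 immediate early genes, which answer stimuli and the handling of tissue within minutes, 9 were below and 0 above (median -0.80, or -0.36 without HLU 2). *Fos* stood at 551, 552, 473 and 225 CPM. Of 12 glucocorticoid response genes 9 were below and 0 above (median -1.38, or -0.52), with *Dusp1*, a phosphatase that ends MAP kinase signals, at 683, 632, 543 and 195 CPM. Of 7 clock genes 5 were below and 0 above, with a median of -1.36, or -1.59 over the same genes without HLU 2. *Nr1d1*, a repressor of the circadian clock named here after its values were seen, stood at 31.0, 21.9, 0 and 3.57 CPM (log2 fold change -4.04, SE 0.97, edgeR adjusted p = 0.144). Skeletal barcodes held 203 and 211 unscaled CPM of *Nr1d1* in Ctrl, against 32.4 and 23.1 in the members. Members with at most 1% skeletal UMIs held 17.3, 21.6, 0 and 0.564. The immature gate held 10.4, 22.5, 0.656 and 0.0786, the gate with 3 or more activation UMIs 51.0, 29.6, 0 and 0.589, and that with 4 or more UMIs of the *Creg1* genes 33.6, 32.1, 2.72 and 2.03. The source of the *Nr1d1* fall was not tested. *Per1*, a core clock gene, was not higher in skeletal barcodes: it stood at 105, 150, 88.9 and 9.27 CPM, and skeletal barcodes held 26.6 and 48.4 unscaled CPM against 110 and 159 in the members.

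Heat shock genes differed between the Ctrl libraries, and their medians of log2(CPM + 1) minus the Ctrl mean were 0.64, -0.64, -0.35 and -1.55. *Hspa1a*, an inducible chaperone, stood at 1876, 137, 284 and 0.713 CPM, highest in Ctrl 1. All 11 tested genes had a negative log2 fold change (median -0.96, or -0.60 without HLU 2), 10 overlapped between groups and none passed (1 at an unadjusted p under 0.05, 0 with DESeq2). Of the 11, 4 passed the filter on low counts only through Ctrl, *Hspb1* among them, which favours a lower value in HLU. The median over the 7 that passed in both groups was -0.68. The small heat shock protein *Hspb1*, the exception to the overlap, stood at 656, 107, 5.74 and 0 CPM. Of 20 activation genes outside the rule 5 were above and 7 below (median -0.18, or -0.03 without HLU 2). *Il1b* stood at 585, 450, 599 and 2761 CPM and *Cxcl2* at 2935, 2761, 1876 and 2500. Apoptosis genes were as mixed, with 4 of 20 above, 8 below and a median of 0.13 (-0.13 without HLU 2). *Mcl1*, on which neutrophil survival depends, stood at 1487, 1718, 1264 and 550 CPM. Of 13 glutamine metabolism genes 2 were above and 5 below (median -0.42, or -0.11), with the cystine transporter *Slc7a11* at 761, 561, 774 and 1368 CPM. Of 16 transcription factors 2 were above and 4 below (median -0.09, or 0.03). *Cebpb*, which drives emergency granulopoiesis, stood at 3239, 3570, 2482 and 352 CPM, again low in HLU 2.

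Markers of other cell types varied between libraries inside the members. The most abundant gene of a list is named over all libraries together and need not lead in each. Those of B cells summed to 144, 330, 654 and 19.4 unscaled CPM, with *Igkc* most abundant, and all 6 tested genes overlapped. Those of monocytes and macrophages summed to 1150, 1741, 505 and 1050. *Fn1*, at 1040, 1539, 284 and 223 CPM, was the most abundant except in HLU 2, where *Ly6c2* was higher. A single member held 546 of the 593 *Fn1* UMIs of HLU 1 and another 127 of the 312 of HLU 2. Without *Fn1* the list summed to 62.2, 118, 188 and 878 unscaled CPM, of which *Ly6c2* gave 29.8, 80.9, 158 and 696. Without both it summed to 32.4, 37.2, 30.4 and 182, with HLU 1 lowest. *Ly6c2*, a surface antigen of inflammatory monocytes, stood at 28.5, 76.7, 141 and 897 CPM (log2 fold change 3.29, SE 0.94, edgeR adjusted p = 0.236), and DESeq2 called it and the macrophage marker *Adgre1* higher and *Fn1* lower. The immature gate held 149, 180, 248 and 2069 unscaled CPM of *Ly6c2*, and the gate with 4 or more UMIs of the *Creg1* genes 207, 227, 340 and 5145. Both were above the members in each library. The gate with 3 or more activation UMIs held 77.6, 58.4, 133 and 481, above the members only in Ctrl 1. Fibronectin (*Fn1*) was also high in skeletal barcodes, at 6574 and 8756 unscaled CPM in Ctrl, and missed the threshold at an edgeR adjusted p of 0.0735. Dendritic cell markers summed to 66.5, 102, 174 and 19.9, with *Cd74* most abundant and *Clec9a* at 0, and those of T and NK cells to 10.5, 20.5, 36.3 and 41.5, with *Nkg7* most abundant. Basophil and mast cell markers summed to 2.63, 1.28, 1.60 and 18.8, with *Fcer1a* and *Ms4a2* at 0. *Prss34* was the most abundant of them over the libraries together but was at 0 in HLU 1. Eosinophil markers summed to 2.63, 3.21, 8.01 and 40.4, with *Prg2*, a granule protein, most abundant except in Ctrl 1, where it was at 0. DESeq2 called *Prg2* higher and edgeR did not (edgeR adjusted p = 0.259). Megakaryocyte markers summed to 22.8, 7.70, 16.6 and 6.09, with *Pf4* most abundant and *Gp1bb* at 0. Genes of dividing cells summed to 74.4, 84.7, 113 and 154, and 3 of 7 tested were above both Ctrl libraries. Of the 7, 3 passed the filter on low counts only through HLU, and of the 4 that passed in both groups 1 was above. The part of these cells in the results was not tested.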

How the data were processed

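Single-cell libraries of bone from 2 Ctrl and 2 HLU mice were used. The authors aligned and counted the reads with Cell Ranger 6.0.0 on mm10 and deposited raw UMI counts per gene and barcode, without normalization; the submitters' processing notes also name Seurat 4.1.0. Summed UMIs of the deposited barcodes were 57925383, 61296053, 47819046 and 99849070. The members and gene lists were chosen with earlier results of these data known. B-like barcodes had at least 5 UMIs of B cell markers and under 1% *S100a8* and *S100a9*.

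Members' counts were summed per library and tested with edgeR 4.0.16 under R 4.3.3 (filterByExpr, TMM, quasi-likelihood test, Benjamini-Hochberg over all genes tested). Factors were 1.06, 1.067, 1.129 and 0.7834, so a CPM moves with them. Shares were compared by two-sided exact permutation tests. Python 3.11.15, numpy 2.4.6, scipy 1.17.1, pandas 2.3.3, scanpy 1.11.5 and matplotlib 3.10.9 served the rest, and positions came from GENCODE M21.

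Named genes were the label markers and rule genes, the 10 largest called falls and rises that do not overlap (filled to 10 by smallest p at 10 CPM or more), each list's called and 3 most abundant genes, the 15 genes with the highest fold over other barcodes, and the 10 largest folds each way against each gate. The folds against a gate were taken over genes with the same direction in every library. Genes named beyond this rule were chosen after their values were seen, and some genes of the lists are counted but not reported here by name. The alternatives were other limits of the rule, denominators, normalizations and filters, DESeq2 1.42.0, thinning to 1000 UMIs, equal members, left-out libraries, doublets out and a replicate block. Chosen after seeing the data were barcodes from 500 UMIs, members of 1500 to 3000 UMIs, and leaving out genes of other cell types, ribosomal RNA and mitochondrial genes, or members over 1% skeletal UMIs.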

Additional observations from a re-analysis of the deposited data

How the results depend on the processing

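The share of mature neutrophils was 0.696 percentage points higher in HLU, from -1.53 without HLU 1 to 2.92 without HLU 2 when a library was left out, -0.0473 with activation genes under 2 UMIs and 7.27 with the rule on thinned barcodes. The share of mature neutrophils among barcodes with S100a8+S100a9 at 3% or more differed by -7.02 points, by -9.84 to -4.20 over the left-out libraries, and by -0.0808 with the rule on thinned barcodes, where it was nearly gone. The 0 higher calls became 203 without a filter on low counts, 12 with DESeq2 and 0 to 1096 when a library was left out (22 without Ctrl 2, 1096 without HLU 1, 25 without HLU 2). The 49 lower calls became 506 without a filter, 0 with at least 10 counts in every library, 149 with DESeq2, 31 in members thinned to 1000 UMIs, 84 with the same number of members per library, 22 with the rule on thinned barcodes, 11 with activation genes under 2 UMIs, 0 without putative doublets, 19 in members of 1500 to 3000 UMIs (chosen after seeing the data) and 18 to 1208 when a library was left out (18 without Ctrl 1, 179 without Ctrl 2, 1208 without HLU 1, 252 without HLU 2). The 10-count filter removes 38 of the 49 genes from the test and leaves 11 at an adjusted p of 0.0709 to 0.0911; the cause of these changes was not tested.

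With a replicate block the calls were 45 higher and 334 lower, all 49 included. The replicate numbers pair no mice in the labels, and same-numbered libraries deviated together with a correlation of 0.0318.

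*Retnlg*, at 0.10 on the log2 scale, turned to -0.049 without Ctrl 1, -0.14 with the rule on thinned barcodes, -0.033 without putative doublets, -0.052 in members of 1500 to 3000 UMIs and -0.10 without members over 1% skeletal UMIs, and ranged from -0.15 (without HLU 1) to 0.32 over the left-out libraries. Leaving out HLU 2 turned *Lcn2* to -0.42, *Ifitm2* to -0.042, *Ifitm3* to -0.23 and *Ifitm1* to -0.21, while their highest values, without HLU 1, were 1.98, 2.69, 0.93 and 1.84. Of 932 values of 50 named genes over the alternatives, 780 kept direction and side of the threshold, 77 passed it only there, 65 lost it and the 10 given above changed direction. The 2 mice a group and genes with few UMIs, such as *Ifit1*, limit the precision, and intervals cover counting error only.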
